A study of Mus musculus with 6 samples.

Results

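The genes described here are 34 genes of the Hippo signalling pathway and its YAP-TAZ output in Carmil3 knockout and wild type 4T1 cells, a cell line from a mouse mammary tumour. They were found by matching the member symbols to Ensembl mouse gene identifiers in the deposited table, and all 34 were among its 23644 genes. The members comprised 20 pathway components and 14 target genes of YAP and TAZ. The tested cells were Carmil3 knockout 4T1 cells, described in the labels as derived from single cells (3 libraries), and they were compared with control 4T1 cells labelled wild type (3 libraries). Both were grown in DMEM with fetal bovine serum, penicillin and streptomycin. The sources used here do not give the method of knockout, the number of clones, any cloning of the control cells, or whether replicates were separate cultures. All p-values thus reflect the spread among these 6 libraries, which may be technical, and effects of the knockout and of growth from single cells cannot be told apart.

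The Hippo pathway is a kinase cascade in which MST kinases (genes Stk3 and Stk4) with their scaffold Sav1 activate LATS kinases with their MOB1 cofactors. LATS kinases phosphorylate the transcriptional coactivators YAP and TAZ, which keeps them in the cytoplasm, and unphosphorylated YAP and TAZ enter the nucleus and bind TEAD factors at their target genes. The pathway is known for reading cell contact, polarity and the tension of the actin cytoskeleton in epithelial cells. Carmil3 encodes a protein of the CARMIL family, which binds actin capping protein. RNA levels do not show phosphorylation or nuclear location.

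Values are FPKM, reads scaled for exon length and library size, as the authors deposited them. A change is given on the log2(FPKM + 1) scale as knockout minus wild type, which understates the change of weakly expressed genes. Calls were made with limma at a Benjamini-Hochberg adjusted p under 0.05 over the 11171 genes that reached 1 FPKM in 3 or more libraries. Library totals, recovered from the step size of the FPKM values, lay between 18138455 and 19046120 for the knockout libraries and between 17778456 and 18719534 for the wild type libraries. Carmil3 itself was listed at 0 to 0.0241 FPKM in knockout and 0.0117 to 0.036 FPKM in wild type libraries, too low a level to check the labels by. The 9 epithelial markers of the tumour cells (keratins Krt7, Krt8, Krt14, Krt18 and Krt19, Epcam, Cdh1, Cldn4 and Cldn7) were expressed in the wild type cells, and all 9 were lower in the knockout cells. Their summed level was 429 to 473 FPKM in knockout and 1039 to 1137 FPKM in wild type libraries. Krt8 and Krt18 made up most of that sum, at 217 ± 9.25 and 227 ± 14.8 FPKM in knockout and 470 ± 19.6 and 522 ± 24.7 FPKM in wild type cells (SD, n = 3). Krt7, Krt14, Epcam, Cdh1, Cldn4 and Cldn7 were below 1 FPKM in every knockout library and reached the filter through the wild type libraries alone. Of these Epcam averaged 0.0875 ± 0.0544 FPKM in knockout and 19.7 ± 0.0502 FPKM in wild type cells, and Krt14 had 0, 0 and 1 recovered reads in knockout libraries and averaged 2.81 ± 0.194 FPKM in wild type cells (SD, n = 3). The part of this loss in the members' changes was not tested. Fibroblast markers summed to 19.6 to 20.8 FPKM in knockout and 19.8 to 21.8 FPKM in wild type libraries, with Pdgfra higher, at 17.6 ± 0.272 FPKM in knockout and 10.1 ± 0.135 FPKM in wild type cells, and Pdgfrb lower, at 2.06 ± 0.337 FPKM in knockout and 9.49 ± 1.06 FPKM in wild type cells (SD, n = 3). Col1a1 was also lower, at 0.271 FPKM in knockout and 1.5 FPKM in wild type cells, and passed the filter through wild type libraries. Endothelial markers summed to at most 0.0682 FPKM in knockout and 0.0572 FPKM in wild type libraries, and of the leukocyte markers Cd68 alone averaged 1 FPKM or more. In bulk RNA, fewer cells of a type and less RNA per cell cannot be told apart.

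Among the members, most of the tested YAP-TAZ target genes were lower in the knockout cells. The components were split between higher, lower and uncalled genes. Genes outside the member list that respond to YAP and TAZ were also split, with 8 higher and 5 lower of 18 tested. Of the 14 targets, 12 reached the expression filter; 9 of these were lower, 1 was higher and 2 did not pass the test. Of the 20 components, all tested, 4 were higher, 6 were lower and 10 did not pass. Lats2 and Amotl2, which are also known to respond to YAP and TAZ, were counted as components. Their log2 changes were -0.60 and 0.28, so the contrast of targets with components depends in part on this assignment. Over all tested genes 35.6% passed, with 16.9% higher and 18.7% lower. The median log2 change was -0.62 over the tested targets, -0.06 over the components and -0.01 over all tested genes. Dlc1 reached the filter through the wild type libraries, where all 3 were at 1 FPKM or more against 1 of 3 in the knockout cells, and the other tested members reached 1 FPKM in every library.

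**Figure D1:**
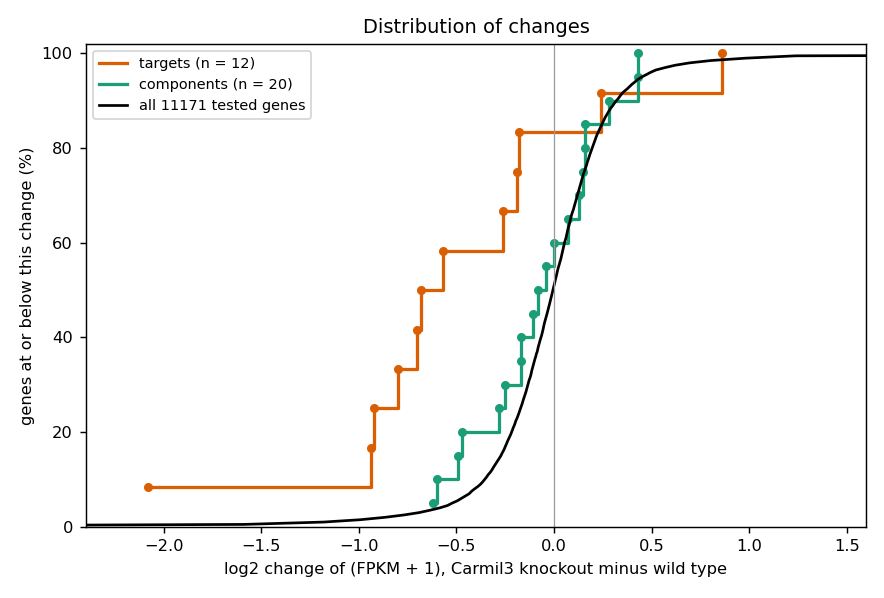
Cumulative share of genes (vertical axis, %) at or below a log2 change of FPKM + 1, knockout minus wild type (horizontal axis), for 12 tested targets, 20 components and all 11171 tested genes. The targets lie to the left of both other curves over most of the range, with a median of -0.62 against -0.06 for components and -0.01 for all genes.

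Knockout and wild type values did not overlap for 11 of the 12 tested targets and for 12 of the 20 components, where 50.5% of all tested genes showed no overlap. The exception among the tested targets was Arhgef17. With the adjustment for chromosome position described below, 8 targets were lower and 1 higher, and 5 components were lower and 3 higher, where 26.6% of all tested genes passed.

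**Figure D2:**
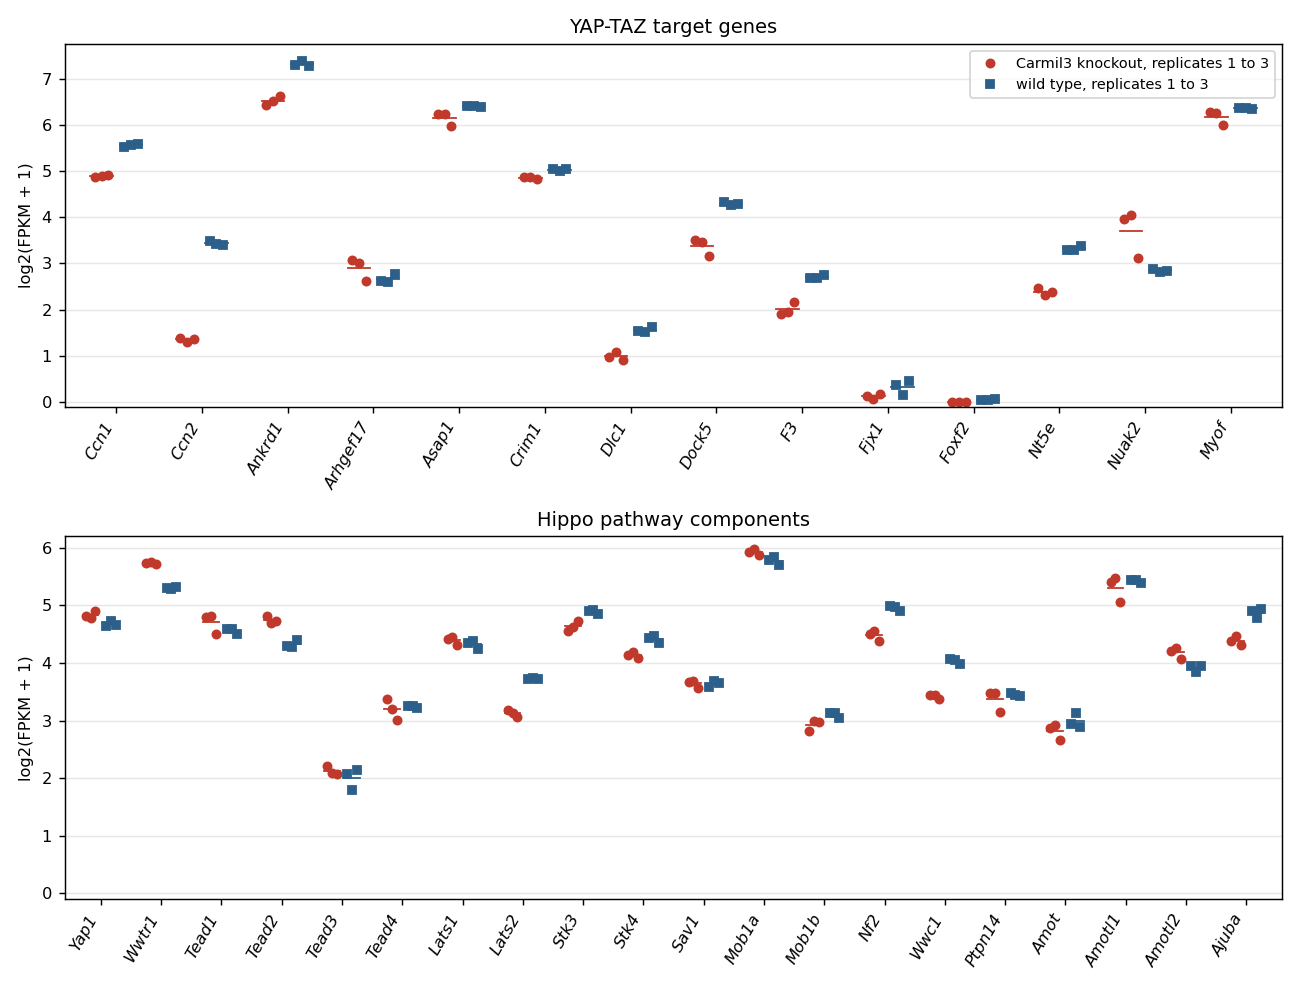
Level of each member in every library as log2(FPKM + 1), with knockout replicates 1 to 3 as circles left of wild type replicates 1 to 3 as squares, and short lines at the group means. Ccn2 shows the widest gap between the groups, while Foxf2 and Fjx1 lie near 0 in all 6 libraries.

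The matricellular genes Ccn1 and Ccn2 (formerly Cyr61 and Ctgf) and the ankyrin repeat gene Ankrd1 are the most widely used readouts of YAP-TAZ activity. For Ccn1 and 3 other members the sequence before the RefSeq transcription start on build GRCm38.p6 is shown here, because TEAD factors bind the letters GGAATG, which read as CATTCC on the other strand, and most of these windows hold them. Capitals mark each match. The Ccn1 window is chr3:145649986-145650235 on the minus strand, the Ajuba window chr14:54577662-54577911 on the minus strand and the Crim1 window chr17:78199998-78200247 on the plus strand. In the F3 window, chr3:121723287-121723536 on the plus strand, capitals mark the AP-1 motif TGANTCA instead, which was searched on both strands; no TEAD motif was found there.
Ccn1: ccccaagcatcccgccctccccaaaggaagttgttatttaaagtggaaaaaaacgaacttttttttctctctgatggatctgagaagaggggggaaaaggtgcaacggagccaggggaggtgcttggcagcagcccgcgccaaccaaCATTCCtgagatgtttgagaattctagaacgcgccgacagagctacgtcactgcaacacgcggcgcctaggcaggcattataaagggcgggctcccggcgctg
Ajuba: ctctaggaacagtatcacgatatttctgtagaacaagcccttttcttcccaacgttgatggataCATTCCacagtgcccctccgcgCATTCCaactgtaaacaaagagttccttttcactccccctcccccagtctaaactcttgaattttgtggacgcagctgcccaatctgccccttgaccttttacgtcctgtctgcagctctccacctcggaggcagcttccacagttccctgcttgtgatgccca
Crim1: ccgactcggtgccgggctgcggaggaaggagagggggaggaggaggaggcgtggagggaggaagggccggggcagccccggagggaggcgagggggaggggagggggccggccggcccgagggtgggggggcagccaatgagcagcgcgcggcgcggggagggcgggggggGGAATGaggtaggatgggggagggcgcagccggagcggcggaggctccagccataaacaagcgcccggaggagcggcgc
F3: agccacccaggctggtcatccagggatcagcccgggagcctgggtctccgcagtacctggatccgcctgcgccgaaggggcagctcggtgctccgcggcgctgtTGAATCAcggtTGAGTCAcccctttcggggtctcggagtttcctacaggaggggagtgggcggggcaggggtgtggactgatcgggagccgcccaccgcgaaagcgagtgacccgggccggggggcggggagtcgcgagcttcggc
For Ankrd1 and Amotl2 only the 30 bases around each match are given, since annotated first exons reach into their windows. The Ankrd1 stretches lie at chr19:36120037-36120066 and chr19:36119950-36119979 on the minus strand and the Amotl2 stretch at chr9:102717727-102717756 on the plus strand.
Ankrd1 distal: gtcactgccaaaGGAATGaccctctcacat
Ankrd1 proximal: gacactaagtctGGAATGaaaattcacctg
Amotl2: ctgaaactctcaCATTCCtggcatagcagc

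The match in Ccn1 began 103 bases before the start, those in Ajuba 186 and 164 bases before it, that in Crim1 79 bases, those in Ankrd1 210 and 123 bases and that in Amotl2 65 bases. A 250-base window was listed for 24 of the 34 members, and 11 of these held the TEAD motif on either strand. Over all 27025 genes with a window 14.4% held it. The share was 3 of 7 targets (Ccn1, Crim1 and Ankrd1) and 8 of 17 components (Yap1, Wwtr1, Tead3, Sav1, Mob1a, Ptpn14, Amotl2 and Ajuba), and some genes have several windows. Of these 11 genes Ccn1, Ankrd1, Crim1 and Ajuba were called lower in the knockout cells, Amotl2, Wwtr1 and Yap1 higher, and the rest did not pass. Among all 32 tested members 20 were called, and over all tested genes 35.6% passed. A link between the motif and the changes was not tested. Of the 24 members with a window, F3 alone held AP-1 matches. It held 2, at 146 and 135 bases before its start, and 6.75% of all 32851 windows held at least 1. A match is a description of the letters, not evidence of binding. No window is shown for Ccn2.

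Ccn2 had the largest change of any member. It was listed at 1.63, 1.47 and 1.58 FPKM in knockout replicates 1 to 3, against 10.2, 9.73 and 9.52 FPKM in wild type replicates 1 to 3. Every knockout library was far below every wild type library, and the ratio of wild type to knockout means was 6.28. The log2 change was -2.08 (SE 0.062), with an adjusted p of 1.06e-07 by limma. The recovered reads were 78 to 89 per knockout library and 495 to 529 per wild type library, and no other tested member had so few in a knockout library. An antisense transcript, Gm15270, overlaps 665 of its 2861 exon bases, and without a known strand setting reads of the pair cannot be told apart.

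Ccn1, its relative, was more abundant and changed less. It measured 28.2, 28.6 and 29.3 FPKM in knockout libraries, against 45.2, 46.7 and 47.3 FPKM in wild type libraries. The groups did not overlap, and the log2 change was -0.68 (SE 0.048; adjusted p = 1.8e-05, limma). The log2 ratio of Ccn2 to Ccn1 within a library averaged -4.20 ± 0.087 in knockout and -2.24 ± 0.083 in wild type cells (SD, n = 3), a difference of -1.96. A two-sided exact permutation test over the 6 libraries gave p = 0.1, which is the smallest that 3 against 3 allow, and 0.12 after Benjamini-Hochberg adjustment over 6 paralog ratios. Ankrd1, which encodes a nuclear and sarcomeric ankyrin repeat protein, was the most abundant of the 14 targets in both groups. It measured 84.9, 90.8 and 98 FPKM in knockout libraries, against 157, 166 and 154 FPKM in wild type libraries. No values overlapped, and the ratio of wild type to knockout means was 1.75 (log2 change -0.80, SE 0.067; adjusted p = 4.28e-05, limma).

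Nt5e, Dock5, F3 and Dlc1 were lower as well. Nt5e, the ecto-5'-nucleotidase CD73 that makes extracellular adenosine, measured 4.53, 4.01 and 4.18 FPKM in knockout libraries, against 8.82, 8.85 and 9.45 FPKM in wild type libraries. Knockout values were all below 5 FPKM and wild type values all above 8 FPKM, and the log2 change was -0.94 (SE 0.064; adjusted p = 1.34e-05, limma). Dock5, a guanine nucleotide exchange factor for Rac, measured 10.4, 10 and 7.92 FPKM in knockout libraries, against 19.2, 18.3 and 18.5 FPKM in wild type libraries. Replicate 3 was the lowest of the knockout libraries, and the groups did not overlap (log2 change -0.92, SE 0.09; adjusted p = 0.000112, limma). F3, the tissue factor that starts blood coagulation, measured 2.76, 2.87 and 3.49 FPKM in knockout libraries, against 5.42, 5.43 and 5.73 FPKM in wild type libraries. For F3 replicate 3 was the highest knockout library, and all knockout values stayed below those of wild type cells (log2 change -0.70, SE 0.08; adjusted p = 0.000294, limma). Dlc1, a GTPase-activating protein, was near the filter at 0.965, 1.11 and 0.874 FPKM in knockout libraries, against 1.89, 1.84 and 2.08 FPKM in wild type libraries. Its log2 change was -0.57 (SE 0.081; adjusted p = 0.000979, limma), and the ratio of wild type to knockout means was 1.97.

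Smaller falls were found for Asap1, a GTPase-activating protein for Arf, and Crim1, a transmembrane protein that binds BMPs. Asap1 averaged 70.2 ± 7.4 FPKM in knockout and 83.8 ± 0.763 FPKM in wild type cells (SD, n = 3). Its log2 change was -0.26, with an adjusted p of 0.0307 by limma, and the call was lost without wild type replicate 1, 2 or 3 (0.0907, 0.077 and 0.0677). The genes around Asap1 on chromosome 15 had a median log2 change of -0.21, and after subtraction of this value the change was -0.05 (adjusted p = 0.696, limma). Crim1 averaged 28 ± 0.433 FPKM in knockout and 31.8 ± 0.492 FPKM in wild type cells (SD, n = 3), a log2 change of -0.18 (adjusted p = 0.0204, limma). This call was lost without knockout replicate 1 or 2 or wild type replicate 1 or 3, with adjusted p between 0.0549 and 0.0953 by limma. Myof, which encodes the membrane repair protein myoferlin, did not pass: it averaged 71.4 ± 7.46 FPKM in knockout and 81.3 ± 1.32 FPKM in wild type cells (SD, n = 3), with an adjusted p of 0.0868 by limma and an interval of the log2 change from -0.36 to -0.01 before adjustment. Knockout replicate 3 was also the lowest knockout library for Asap1 and Myof.

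Nuak2, an AMPK-related kinase, was the only target called higher, and the call was fragile. It measured 14.6, 15.6 and 7.69 FPKM in knockout libraries, against 6.41, 6.07 and 6.16 FPKM in wild type libraries. Knockout replicate 3 lay close to the wild type range, while the other knockout libraries were more than 14 FPKM. The ratio of knockout to wild type means was 2.04, with a log2 change of 0.86 (SE 0.25; adjusted p = 0.038, limma). Without knockout replicate 3 the log2 change was 1.16 with an adjusted p of 3.1e-05 by limma. Without any other single library the call was lost, with adjusted p from 0.0792 to 0.131 by limma. Arhgef17, a guanine nucleotide exchange factor, showed the same split among the knockout libraries, with 7.47, 7.07 and 5.17 FPKM, against 5.18, 5.07 and 5.87 FPKM in wild type libraries. Its groups overlapped and its log2 change of 0.24 did not pass (adjusted p = 0.152, limma), but without knockout replicate 3 it was 0.38 and passed (adjusted p = 0.00737, limma).

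The remaining targets were barely detected. Fjx1, the mouse counterpart of Drosophila four-jointed, was listed at 0.101, 0.0517 and 0.123 FPKM in knockout libraries, against 0.298, 0.108 and 0.375 FPKM in wild type libraries. These values correspond to 3 to 7 recovered reads in knockout and 6 to 22 in wild type libraries, the groups overlap, and the two-sided exact permutation test gave p = 0.2. Foxf2, a forkhead factor of mesenchymal tissues, was listed at 0 in all 3 knockout libraries, against 0.0233, 0.0238 and 0.0452 FPKM in wild type libraries, which is 1 to 2 recovered reads. A loss of Foxf2 was not detectable at this depth.

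**Figure D3:**
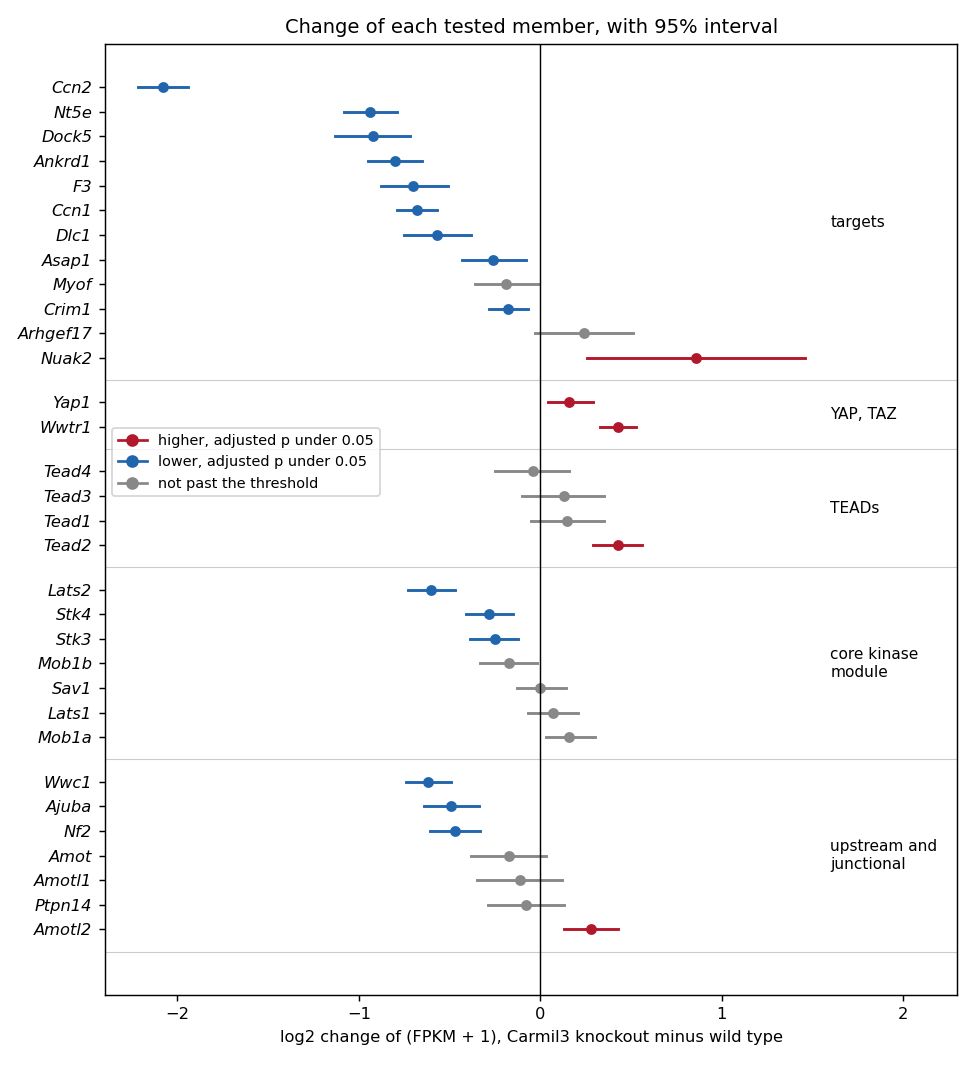
Log2 change of FPKM + 1 for the 32 tested members, knockout minus wild type (horizontal axis), with 95% intervals from limma, arranged by role. Points are coloured by the call at an adjusted p under 0.05; Ccn2 at -2.08 and Nuak2 at 0.86 are the extremes, and components lie between -0.62 and 0.43.

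Both coactivators of the pathway were called higher in the knockout cells, opposite in direction to most of the tested targets among the members. Wwtr1, which encodes TAZ, measured 52.3, 52.7 and 51.8 FPKM in knockout libraries, against 38.6, 38.2 and 38.8 FPKM in wild type libraries. The libraries of each group lay within 1 FPKM of each other, and the log2 change was 0.43 (SE 0.045; adjusted p = 0.000182, limma). Yap1 measured 27.2, 26.6 and 29 FPKM in knockout libraries, against 24.1, 25.4 and 24.2 FPKM in wild type libraries. Its groups did not overlap, but the change was small at 0.16 (SE 0.054), and the adjusted p of 0.0477 by limma rose above the threshold without any 1 of the 6 libraries (0.0524 to 0.172). Centring on neighbouring genes also ended the call (adjusted p = 0.235, limma). Yap1 and Wwtr1 together summed to 79.9 ± 0.831 FPKM in knockout and 63.1 ± 0.477 FPKM in wild type cells (SD, n = 3). TAZ transcripts made up 65.4% of that sum in knockout and 61.1% in wild type cells. The log2 ratio of Wwtr1 to Yap1 was 0.92 ± 0.075 in knockout and 0.65 ± 0.052 in wild type libraries (SD, n = 3; exact permutation p = 0.1, adjusted 0.12).

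Of the TEAD factors, through which YAP and TAZ bind DNA, Tead2 alone passed the test. Tead2 measured 27.2, 24.9 and 25.7 FPKM in knockout libraries, against 18.6, 18.5 and 20.1 FPKM in wild type libraries. The groups stood apart, with a log2 change of 0.43 (SE 0.059; adjusted p = 0.000827, limma). Tead1 averaged 25.2 ± 3.16 FPKM in knockout and 22.6 ± 0.792 FPKM in wild type cells (SD, n = 3; adjusted p = 0.22, limma). Its knockout replicates 1 and 2, at 26.8 and 27.3 FPKM, were above all wild type libraries and replicate 3, at 21.6 FPKM, was below them. Without that library Tead1 passed as higher (log2 change 0.25, adjusted p = 0.0075, limma). Tead3 averaged 3.37 ± 0.245 FPKM in knockout and 3.02 ± 0.499 FPKM in wild type cells, and Tead4 averaged 8.21 ± 1.18 FPKM in knockout and 8.44 ± 0.126 FPKM in wild type cells (SD, n = 3). The intervals of their log2 changes were -0.10 to 0.35 and -0.25 to 0.16. Tead2 made up 41.3% of the summed TEAD level in knockout and 35.9% in wild type cells, and Tead1 made up 40.2% in knockout and 42.5% in wild type cells.

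In the core kinase module, 3 of 7 genes fell, none was called higher and 4 did not pass. The share called, 42.9%, was near the 35.6% of all tested genes, and with neighbour centring it was 28.6% of the module against 26.6% of all. Lats2, which is both a kinase of the cascade and itself known to be induced by YAP and TAZ, measured 8.13, 7.78 and 7.36 FPKM in knockout libraries, against 12.2, 12.4 and 12.2 FPKM in wild type libraries. The groups were separated by more than 4 FPKM, with a log2 change of -0.60 (SE 0.056; adjusted p = 8.75e-05, limma). The genes around Lats2 on chromosome 14 had a median log2 change of -0.35, and after its subtraction Lats2 still passed at -0.25 (adjusted p = 0.0106, limma). A second annotated gene on the same strand, Gm49361, shares 2955 of its 6971 exon bases. Lats1 averaged 20.1 ± 1.01 FPKM in knockout and 19.1 ± 0.967 FPKM in wild type cells (SD, n = 3), with an interval of the log2 change from -0.07 to 0.21. The log2 ratio of Lats2 to Lats1 was -1.37 ± 0.046 in knockout and -0.64 ± 0.063 in wild type libraries (SD, n = 3; exact permutation p = 0.1, adjusted 0.12).

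Both MST kinase genes were called lower. Stk4 (MST1) averaged 16.7 ± 0.591 FPKM in knockout and 20.4 ± 0.927 FPKM in wild type cells (SD, n = 3), a log2 change of -0.28 (adjusted p = 0.00624, limma). Stk3 (MST2) averaged 23.9 ± 1.65 FPKM in knockout and 28.7 ± 0.734 FPKM in wild type cells (SD, n = 3), a log2 change of -0.25 (adjusted p = 0.0125, limma; 0.0559 without wild type replicate 1). Their neighbourhoods differed: the genes around Stk3 on chromosome 15 had a median change of -0.25 and those around Stk4 on chromosome 2 of -0.02. After centring Stk3 had a log2 change of -0.01 (adjusted p = 0.932, limma), and Stk4 kept its call. The log2 ratio of Stk3 to Stk4 overlapped between the groups, at 0.52 ± 0.13 in knockout and 0.49 ± 0.029 in wild type libraries (SD, n = 3; exact permutation p = 1). The scaffold gene Sav1 averaged 11.5 ± 0.584 FPKM in knockout and 11.5 ± 0.44 FPKM in wild type cells (SD, n = 3), and the interval of its log2 change was -0.13 to 0.14. Of its exon bases 25.4% overlap Atl1 on the other strand.

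Mob1a and Mob1b, near-identical cofactors of the LATS kinases, did not pass, and reads of such close copies may be split between them. Mob1a averaged 60.2 ± 2.19 FPKM in knockout and 53.7 ± 2.76 FPKM in wild type cells, and Mob1b averaged 6.63 ± 0.491 FPKM in knockout and 7.6 ± 0.29 FPKM in wild type cells (SD, n = 3). Their adjusted p values by limma were 0.0549 and 0.073, and the knockout and wild type values did not overlap for either gene. With limma-voom on the recovered reads both passed, Mob1a as higher (adjusted p = 0.047) and Mob1b as lower (0.0328).

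**Figure D4:**
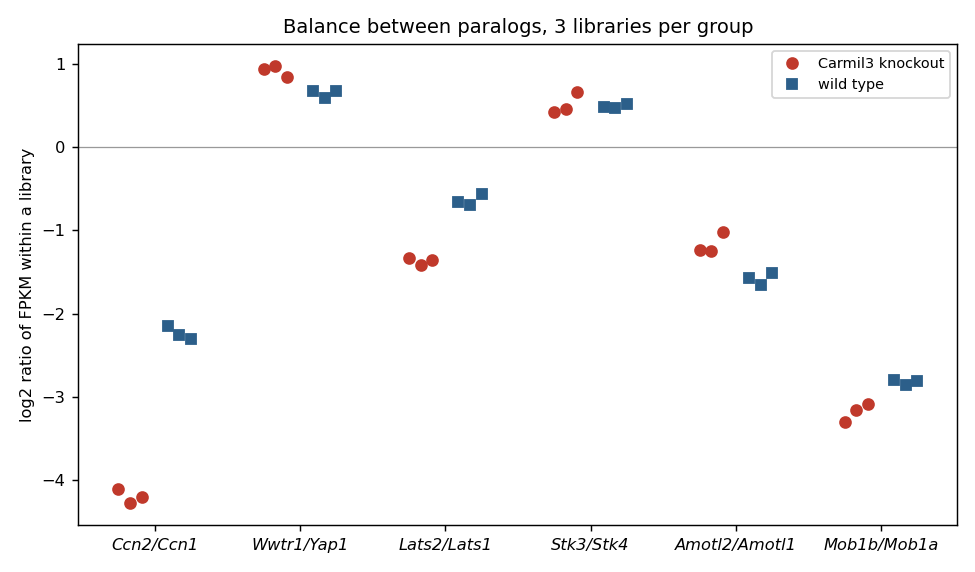
Log2 ratio of FPKM between paralogs within each library (vertical axis), with 3 knockout libraries as circles left of 3 wild type libraries as squares for each pair. The groups are separate for Ccn2/Ccn1, Wwtr1/Yap1, Lats2/Lats1, Amotl2/Amotl1 and Mob1b/Mob1a, and overlap for Stk3/Stk4, whose means are 0.52 and 0.49.

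Upstream and junctional regulators held 3 falls and 1 rise among 7 genes. The share called was 57.1% against 35.6% of all tested genes, and with neighbour centring 57.1% against 26.6%. Wwc1, which encodes the LATS-binding scaffold KIBRA, measured 9.9, 9.84 and 9.35 FPKM in knockout libraries, against 15.9, 15.5 and 14.8 FPKM in wild type libraries. No values overlapped, and the log2 change of -0.62 was the largest of any component (SE 0.055; adjusted p = 6.42e-05, limma). Nf2, the tumour suppressor merlin that links the membrane cytoskeleton to the cascade, measured 21.7, 22.5 and 19.9 FPKM in knockout libraries, against 30.7, 30.3 and 28.8 FPKM in wild type libraries. Ajuba, a LIM-domain protein that inhibits LATS kinases, measured 19.8, 21.2 and 18.9 FPKM in knockout libraries, against 28.9, 26.4 and 29.8 FPKM in wild type libraries. Both were lower in each knockout library than in any wild type library. The log2 change was -0.47 for Nf2 (SE 0.061; adjusted p = 0.00058, limma) and -0.49 for Ajuba (SE 0.066; adjusted p = 0.000743, limma). The genes lowered thus included activators of the cascade (Nf2, Wwc1, Lats2, Stk4) and an inhibitor of it (Ajuba).

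The angiomotins, which hold YAP at junctions and actin filaments, differed among themselves. Amotl2, itself a known YAP-TAZ target, measured 17.6, 18.2 and 15.8 FPKM in knockout libraries, against 14.4, 13.4 and 14.4 FPKM in wild type libraries. It was higher in all 3 knockout libraries (log2 change 0.28, SE 0.066; adjusted p = 0.0125, limma). Amotl1, the most abundant of the family, averaged 39 ± 5.98 FPKM in knockout and 42 ± 0.819 FPKM in wild type cells, and Amot averaged 6.08 ± 0.627 FPKM in knockout and 6.97 ± 0.724 FPKM in wild type cells (SD, n = 3). Neither passed, with adjusted p of 0.411 and 0.169 by limma. Knockout replicate 3 set the spread of Amotl1, at 32.2 FPKM against 41.5 and 43.4 FPKM in the other knockout libraries. The log2 ratio of Amotl2 to Amotl1 was -1.17 ± 0.13 in knockout and -1.58 ± 0.072 in wild type libraries (SD, n = 3; exact permutation p = 0.1, adjusted 0.12). Ptpn14, a phosphatase that binds YAP, averaged 9.44 ± 1.34 FPKM in knockout and 9.99 ± 0.218 FPKM in wild type cells (SD, n = 3), and the interval of its log2 change was -0.29 to 0.13.

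Knockout replicate 3 stood apart for many members. It was the lowest of the knockout libraries for 23 of the 32 tested members (71.9%), against 41.8% of all tested genes. For 10 members it lay more than 0.2 below the mean of knockout replicates 1 and 2 on the log2(FPKM + 1) scale. The deviation followed exon length over all tested genes. When the genes were divided by exon length into 4 groups of nearly equal size, its median was 0.09 in the shortest group, up to 2538 bases, and -0.11 in the longest, from 6642 bases. Wild type replicate 3 against the other wild type libraries gave 0.05 and -0.04 for the same groups. Of the tested members 16 were in the longest group. Nuak2 deviated most, at -0.89, although its exons total 3920 bases. The part of exon length in the members' changes was not tested.

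**Figure D5:**
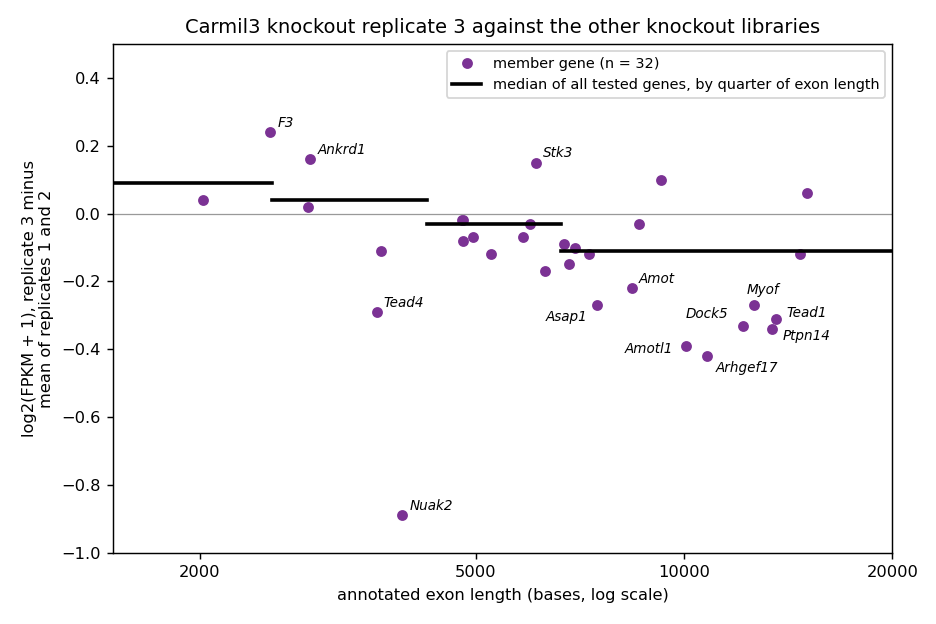
Deviation of knockout replicate 3 from the mean of knockout replicates 1 and 2 in log2(FPKM + 1) (vertical axis) against annotated exon length in bases on a log scale (horizontal axis), for 32 members as points and as medians over all tested genes in 4 groups by exon length as bars. Nuak2 lies lowest at -0.89, and long members such as Arhgef17, Amotl1 and Ptpn14 lie below their group's median of -0.11.

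Other genes of the pathway were taken from lists drawn up from general knowledge. Genes of polarity complexes and atypical cadherins, which feed into the pathway at junctions, had 9 falls and no rise among 13 tested, or 69.2% called where 35.6% of all tested genes were. They included Cdh1 (E-cadherin), which reached the filter through the wild type libraries alone, at 0.773 ± 0.0434 FPKM in knockout and 12.4 ± 0.245 FPKM in wild type cells, and Pard6b, a polarity complex subunit, at 3.45 ± 0.261 FPKM in knockout and 7.07 ± 0.25 FPKM in wild type cells (SD, n = 3). The median log2 change of the 13 was -0.35, and with neighbour centring 7 were called lower (53.8% against 26.6% of all). Cdh1 is also one of the epithelial markers given above.

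Further kinases and scaffolds were mixed, with 6 higher and 6 lower of 25 tested (48% called against 35.6% of all tested genes; 36% against 26.6% with neighbour centring). Wwc2, the relative of Wwc1, averaged 6.01 ± 0.301 FPKM in knockout and 9.47 ± 0.121 FPKM in wild type cells, and the salt-inducible kinase gene Sik1 averaged 11 ± 0.47 FPKM in knockout and 6 ± 0.513 FPKM in wild type cells (SD, n = 3). Their log2 changes were -0.58 and 0.78, with adjusted p of 0.000124 and 6.49e-05 by limma. In the STRIPAK complex, a phosphatase assembly that inactivates MST kinases, 5 of 16 tested genes were higher and 4 lower (56.2% called), with changes of -0.25 for Strn and 0.32 for Ppp2r1b, the largest in each direction at 2 FPKM or more. With neighbour centring 2 were higher and 3 lower, a share of 31.2% against 26.6% of all tested genes. A further list held cofactors, genes of YAP-TAZ turnover, and 14-3-3 proteins, which retain phosphorylated YAP in the cytoplasm. Of its 14 tested genes 2 were higher and 3 lower, a share of 35.7%, close to the 35.6% of all tested genes. Sfn (14-3-3 sigma), an epithelial member that reached the filter through the wild type libraries alone, averaged 0.534 ± 0.173 FPKM in knockout and 4.67 ± 0.487 FPKM in wild type cells (SD, n = 3).

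Genes outside the member list that are known to respond to YAP and TAZ were split. Of 18 tested, 8 were higher and 5 lower (72.2% called against 35.6% of all tested genes), with a median log2 change of 0.15. The cyclin gene Ccnd1 averaged 368 ± 20 FPKM in knockout and 178 ± 1.69 FPKM in wild type cells, and Sox9 averaged 11.6 ± 0.672 FPKM in knockout and 6.07 ± 0.507 FPKM in wild type cells (SD, n = 3). Among the genes lower was Thbs1 (thrombospondin-1), at 22.1 ± 0.748 FPKM in knockout and 65.3 ± 0.624 FPKM in wild type cells (SD, n = 3). These genes also answer to many other pathways. Of a further 6 genes that share a published YAP-TAZ signature with the members, 3 were tested: Axl, a receptor kinase, was higher (log2 change 0.71), Tgfb2, at 1 FPKM or more in the wild type libraries alone, was lower (-0.81) and Gadd45a did not pass (0.26). AP-1 factors, which occupy enhancers together with TEADs, also split among 5 tested. Fosl1, which is also counted among the 8 higher genes above, and Jun were higher (0.78 and 0.67). Jund and Junb were lower (-0.81 and -0.43), while Fosl2 did not pass (-0.10). The share called was 80% against 35.6% of all tested genes, and 60% against 26.6% with neighbour centring.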

How the data were processed

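RNA of 3 Carmil3 knockout and 3 wild type 4T1 libraries was sequenced after Trizol extraction with a standard Illumina protocol, per the labels' protocols. The authors deposited FPKM for 23644 genes. The unit was read from the values. The submitters' processing notes name HTSeq 0.6.0, TopHat2 2.0.12, TopHat, Bowtie2, Bowtie and CASAVA, and the build mm10. Their roles, the annotation and the strand setting were not in the sources used here. Groups follow the sample titles. Symbols, positions and exon lengths came from GENCODE M21 (GRCm38, the assembly mm10), which matched 23577 rows, and promoter sequences came from RefSeq on GRCm38.p6. Of the values up to 500 reads, 92% to 92.3% were whole multiples of a read within 0.02, and the recovered totals are relative, since listed reads sum to 108.7% to 109.1% of them.

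Differences in log2(FPKM + 1) were tested by limma 3.58.1 (R 4.3.3, empirical Bayes, trend and robust options on) with Benjamini-Hochberg adjustment over 11171 genes. The fit was also run on simulated reads with the same dispersion for every gene. Those reads lack the exon-length deviation of knockout replicate 3, so they do not test the fit under it. Below the filter and for paralog ratios a two-sided exact permutation test was used (scipy 1.17.1). For neighbour centring, the median change of 20 tested genes to either side of a gene was subtracted from its knockout values. Alternatives were a pseudocount of 0.1 or 5, a 5 FPKM filter or none, quantile or median-of-ratios scaling, eBayes without trend and robust, the replicate block, each library left out, limma-voom on recovered reads, and neighbour centring. No libraries of a group were near-copies (chi-square of reads over its degrees of freedom 2.949 to 19.13). The members and lists were chosen with earlier results of these data known. Named were all 34 members and Carmil3, and from each other list up to 3 called genes per direction with the largest change and a higher mean of at least 2 FPKM; only some of these are described, chosen with values in view, and some are not reported here. Pals1, Tp73 and Ctnnbp2nl were looked up as Mpp5, Trp73 and Cttnbp2nl.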

Additional observations from a re-analysis of the deposited data

How the results depend on the processing

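Of the 20 members called, 15 kept their direction and call under all 16 alternatives in which they were tested: Wwtr1, Tead2, Lats2, Stk4, Nf2, Wwc1, Amotl2, Ajuba, Ccn1, Ccn2, Ankrd1, Dlc1, Dock5, F3 and Nt5e. The exceptions were Yap1, Stk3, Asap1, Crim1 and Nuak2. The count of targets called higher, 1 (Nuak2), was 0 with limma-voom on recovered reads and 0 without the expression filter, and 0 to 2 with a library left out. The count of targets called lower was 7 to 9 with a library left out, components higher 3 to 5 and components lower 5 to 6. Over all genes 1886 were higher and 2087 lower; with a library left out the counts ranged from 1182 to 2041 higher and from 1358 to 2218 lower, the lowest without wild type replicate 1. The cause was not tested.

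Deviations of same-numbered knockout and wild type libraries correlated at -0.0615, 0.149 and 0.0981. Those of differently numbered libraries correlated at -0.196 to 0.0776. With 3 libraries per group these values cannot decide whether replicate numbers pair the libraries. With the replicate block 1900 genes were higher and 2127 lower, with 9 targets lower and 1 higher and 6 components lower and 4 higher; Yap1 lost its call (adjusted p = 0.0649) and Mob1a gained one (0.0353). Fjx1 and Foxf2 rest on 22 reads or fewer per library, so depth limits what can be said of them.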
